A study of Homo sapiens with 12 samples.

Results

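Long intergenic noncoding RNAs (lincRNAs) are transcripts that carry no long open reading frame and lie for the most part between protein-coding genes. The members described here are the rows of the count table with the biotype lincRNA or lncRNA and a mean raw count of at least 200 over the 12 libraries, leaving out the small nucleolar RNA host genes named SNHG and GAS5, ZFAS1, EPB41L4A-AS1, and DANCR. This rule gave 26 of 58735 rows, and 7629 rows had the biotype lincRNA. The members were thus chosen by their mean raw count, so levels are given as a description, while the groups were compared by tests. The members just inside the threshold were AC005332.6, with a mean of 213 counts, BAIAP2-DT, with 212 counts, and UCA1, with 204 counts. Those just outside were LINC00662 (196 counts), EIF3J-DT (193 counts), and AC125807.2 (192 counts). A mean of 200 counts was reached in every group by 18 members with levels given, while 7 fell under it in at least 1 group, so that their membership rested on the groups where they were high. These 7 were UCA1, MYOSLID, PVT1, AL590004.3, CYTOR, BAIAP2-DT, and MAPKAPK5-AS1. UCA1 averaged 251 and 416 counts in the controls at 24 and 48 h and 59 and 89 with Arg, and MYOSLID averaged 345 and 240 against 178 and 156. AL590004.3 averaged 135 and 160 counts at 24 h in the control and with Arg, and 558 and 643 at 48 h. For these members the tests between groups are not independent of the rule. The counts called at an adjusted p under 0.05 in the main edgeR fits are therefore given for the other 18 as well. All other counts of members, such as those by unadjusted p or by ranges, include these 7.

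TIGK cells are human gingival keratinocytes immortalized with telomerase (hTERT), a single cell line. All libraries came from cells at 48 mM glucose in a base medium that itself held no Arg. The Arg groups received 500 μM Arg for 24 or 48 h, and the untreated controls were kept without Arg for the same times, with 3 libraries (replicates A, B, and C) in each of the 4 groups. Nothing in the labels says whether the replicates came from separate cultures, so the p-values measure the spread between these libraries alone.

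Libraries held between 16542243 and 19040964 counts, and the members together took between 0.110% and 0.144% of them. Keratinocyte markers summed to at least 32525 counts per 1000000 counts (CPM, scaled by TMM) in every library, melanocyte, endothelial, and leukocyte markers to at most 3.05 CPM with TYR and LYZ at 0 throughout, and fibroblast markers to between 30.2 and 102 CPM. Control replicate B at 48 h stood apart, with 1.55% of its counts from mitochondrially encoded genes against 0.906% and 0.707% in replicates A and C, and results that rest on it are given with and without it. This share also differed between groups. It lay between 1.20% and 1.30% in the 24 h control and between 0.624% and 0.802% with Arg at 24 h, without overlap, and between 1.14% and 1.31% with Arg at 48 h.

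LincRNAs act as RNA, often in the nucleus. NEAT1 is the scaffold of paraspeckles, MALAT1 is kept in nuclear speckles, and NORAD is a mostly cytoplasmic RNA known for its part in genome stability. Others, such as PVT1 and BAIAP2-DT, are transcribed beside or away from a protein-coding gene with which they may share regulatory sequence. Several members, among them UCA1, CYTOR, LINC00958, and LINC01503, are best known from carcinomas, including those of squamous epithelium. The libraries were made from polyadenylated RNA, and since MALAT1 and the long form of NEAT1 end without a conventional poly(A) tail, their levels are those of the RNA that such libraries capture.

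Sequence repeats link 4 of the members in pairs. CYTOR (cytoskeleton regulator RNA) and MIR4435-2HG are copies of each other on chromosome 2, and each holds a gene of the same microRNA in an exon. The mature microRNA is shown because it is the product both loci can give, with its seed (bases 2 to 8) in capitals. It lies at chr2:87629764-87629785 on the plus strand in CYTOR and at chr2:111321061-111321082 on the minus strand in MIR4435-2HG (RefSeq, GRCh38.p14).
hsa-miR-4435: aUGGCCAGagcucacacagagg

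The transcripts of CYTOR and MIR4435-2HG in GENCODE v44 shared 11349 distinct stretches of 31 bases, 61.9% of those of CYTOR and 31.9% of those of MIR4435-2HG. Reads that lie wholly in shared sequence cannot be assigned to a single locus. The reads were paired and longer than 31 bases, and their mapping was not examined. How far the counts of both genes are affected was therefore not tested. The promoter windows in RefSeq (250 bases before to 50 after a start site) of both genes are shown because the RNAs moved together in time. Over the 241 bases in which the windows overlap once aligned, all 241 were identical. The third window is that of MYOSLID, the only other member with a promoter in the table that matched the same motif. Capitals mark matches to TGANTCA, an AP-1 type motif, on either strand.
CYTOR promoter, chr2:87455177-87455476, plus strand: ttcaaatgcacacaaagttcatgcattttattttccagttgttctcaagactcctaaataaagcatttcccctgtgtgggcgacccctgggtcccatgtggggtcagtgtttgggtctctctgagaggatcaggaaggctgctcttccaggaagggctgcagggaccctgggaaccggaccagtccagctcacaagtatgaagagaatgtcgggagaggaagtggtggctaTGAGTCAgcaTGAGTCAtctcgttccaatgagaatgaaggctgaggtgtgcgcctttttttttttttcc
MIR4435-2HG promoter, chr2:111495112-111495411, minus strand: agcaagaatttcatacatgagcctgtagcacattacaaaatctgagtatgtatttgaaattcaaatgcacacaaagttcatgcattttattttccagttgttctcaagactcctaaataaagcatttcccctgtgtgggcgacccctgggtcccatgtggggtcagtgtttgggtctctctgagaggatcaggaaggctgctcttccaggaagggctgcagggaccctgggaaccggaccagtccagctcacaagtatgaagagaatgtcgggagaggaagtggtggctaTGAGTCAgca
MYOSLID promoter, chr2:207239561-207239860, plus strand: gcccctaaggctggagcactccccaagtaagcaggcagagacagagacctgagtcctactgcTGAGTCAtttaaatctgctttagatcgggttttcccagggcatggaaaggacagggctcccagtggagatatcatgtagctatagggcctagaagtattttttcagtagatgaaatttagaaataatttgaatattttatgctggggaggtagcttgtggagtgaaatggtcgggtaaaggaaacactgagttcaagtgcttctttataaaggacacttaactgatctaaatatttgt

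RefSeq promoters were at hand for 10 of the 26 members, in 13 windows. TGANTCA was found in 3 of these 10 members and in 7.71% of all 35116 promoters of this length. GGAATG, a TEAD type motif, was found in 3 members (14.0% of all promoters), CACGTG, an E-box, in 1 member (7.26%), and GCGTG, the core bound by the aryl hydrocarbon receptor, in 5 members (36.5%), all searched on both strands. Members were counted over all their windows and the shares over single windows, so no enrichment is read from these counts. A match is a match of letters and does not show binding.

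NORAD and HCG11, an RNA gene on chromosome 6, form the other pair. Their transcripts were identical at 4923 of 5833 aligned positions (84.4%) and shared 656 stretches of 31 bases, 12.2% of those of NORAD. Searched for TGTANATA, an element repeated in NORAD, on the strand of the transcript, the HCG11 transcript held 16 matches (2.81 per kb) and that of NORAD 15 (2.78 per kb). The next highest of the 25 members in GENCODE v44 was EBLN3P, which derives from a bornavirus-like element, with 4 matches (0.506 per kb), and 17 members had none. The first match of each RNA is shown with 8 bases on either side and the element in capitals, since these stretches are identical, followed by the last match of each, which are not.
NORAD, transcript positions 819 to 826: aaggcctgTGTATATAatatgaaa
HCG11, transcript positions 760 to 767: aaggcctgTGTATATAatatgaaa
NORAD, transcript positions 4657 to 4664: agcctattTGTAAATAcctttgtt
HCG11, transcript positions 4909 to 4916: agccaattTGTAAATAccttttta

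Levels of the members spanned a wide range. Divided by exonic length, NORAD came first with 66.5 CPM per kb over the 12 libraries, followed by AL161431.1 (46.5), AC245041.2 (29.1), LINC00958 (13.3), and LINC01503 (11.3). CYTOR was lowest at 0.829 CPM per kb, close to BX890604.2 (1.32) and MIR4435-2HG (1.33), all with long exonic models. AL161431.1 and AC245041.2 carry clone names, and the former is named LINC03061 in GENCODE v44. Across the libraries, UCA1 varied most, by 12.7-fold between its lowest and highest CPM, followed by AL590004.3 (7.65-fold) and CYTOR (3.42-fold), whereas LINC00958 varied by 1.33-fold. For TTTY15, fold changes alone are given.

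**Figure D1:**
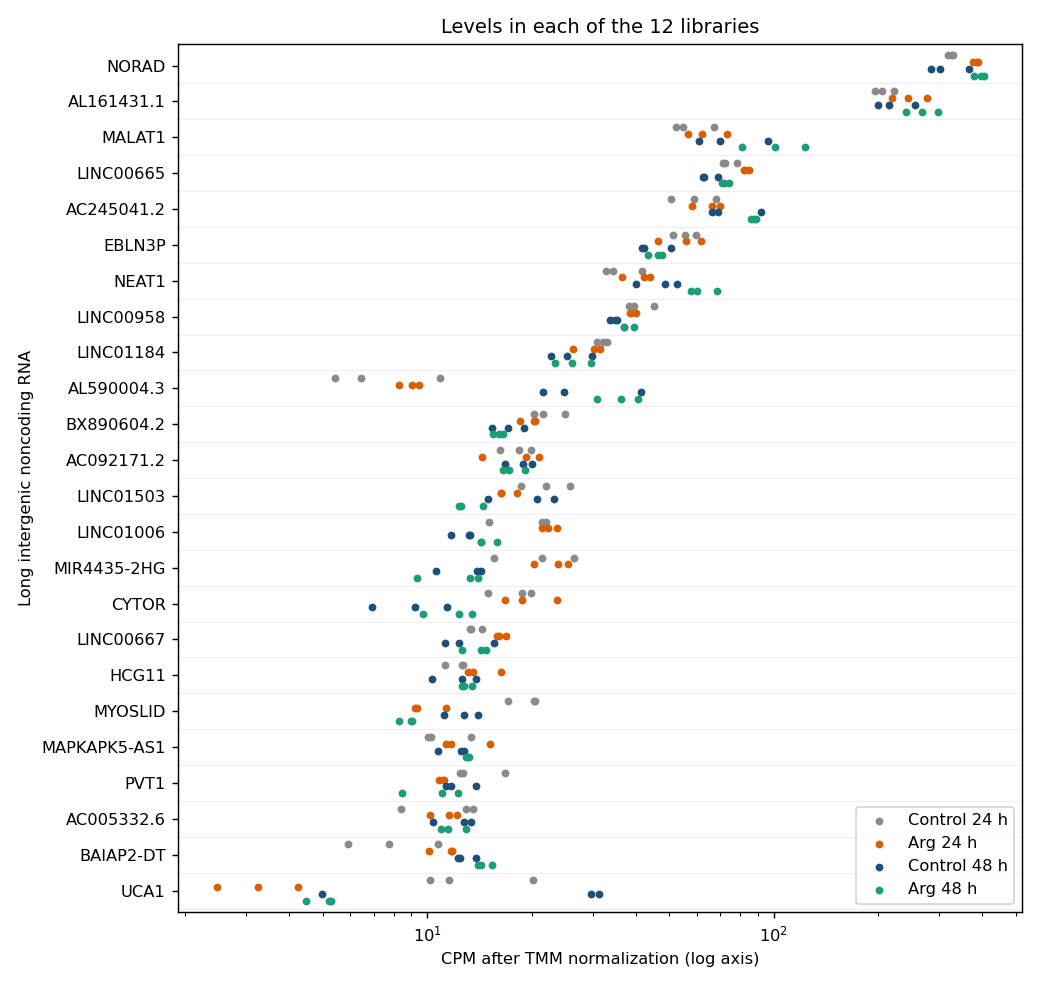
Level of 24 members in each library, in CPM after TMM normalization on a log axis, with 1 point per library colored by group. UCA1 and AL590004.3 spread widest, by 12.7-fold and 7.65-fold, and NORAD lies highest.

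Of the 26 members, 12 overlap another gene with counts. The overlaps of size were those of AC092171.2 with FBXL18 (5704 counts over the 12 libraries), MAPKAPK5-AS1 with MAPKAPK5 (6105 counts), MIR4435-2HG with BCL2L11 (3593 counts), AC005332.6 with LRRC37A16P (1396 counts), and LINC01006 with RNF32 (1023 counts), each on the opposite strand. Whether reads were counted by strand is not given in the sources used here, so these members and their partners cannot be fully told apart. The overlaps of UCA1, with LINC01764 (4 counts), and of MYOSLID, with AC009226.1 (38 counts), were small.

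The question at each time was what Arg did to these RNAs under high-glucose conditions. After 24 h, 2 members were lower with Arg at an adjusted p under 0.05 in edgeR's quasi-likelihood test, UCA1 and MYOSLID, where 3.84% of the 14279 genes tested were lower. Both are among the 7 members that reached 200 counts only through groups where they were high, here the controls, so nothing is read from this count beside that share, and 0 of the other 18 passed. No member passed as higher, where 2.79% of genes did, with 4 higher at an unadjusted p under 0.05 (10.8% of genes) and 1, NORAD, at an adjusted p in DESeq2. At the unadjusted threshold, 4 members were lower (11.9% of genes).

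UCA1, at chr19:15828206-15836326 (GRCh38), a lincRNA first described in bladder carcinoma, showed the largest change with Arg among the members. Replicates A, B, and C of the 24 h control held 20.1, 11.6, and 10.2 CPM, and those with Arg held 3.26, 4.25, and 2.47 CPM. Every control library lay above every Arg library, and control A was the highest. This was a log2 fold change of −2.08 (SE 0.26, adjusted p = 9.67e-05 by edgeR), or 4.22-fold lower. When each library was left out in turn, it lay between −2.29 and −1.72 and passed each time. Nearest genes were sought among the protein-coding genes tested in the fit to all 12 libraries, so genes with few counts were left out. For UCA1 this was CYP4F11, a fatty acid hydroxylase gene on the opposite strand, 76.0 kb away. It held at most 1.98 CPM in any library and did not pass the test in any comparison. In bulk libraries, a lower level in each cell and fewer cells that make the RNA cannot be told apart. The mitochondrial share was lower in these Arg libraries too, as given above, and its part in the values of UCA1 and MYOSLID was not tested.

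MYOSLID, at chr2:207239650-207245887, is known as a lincRNA that promotes the differentiation of smooth muscle. It stood at 20.5, 17.2, and 20.4 CPM in the 24 h control and at 11.3, 9.37, and 9.24 CPM with Arg. The groups did not overlap, and each was tight. Its log2 fold change was −0.96 (SE 0.14, adjusted p = 0.000581 by edgeR), 1.94-fold lower, and the call was kept without any single library.

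LINC01503, at chr9:129332300-129359538, known from squamous cell carcinoma, and PVT1, the neighbor of MYC, also lay lower in all 3 Arg libraries than in any control library. LINC01503 held 22.0, 25.9, and 18.6 CPM in the 24 h control and 16.3, 16.3, and 18.2 CPM with Arg. Their log2 fold changes of −0.39 (SE 0.13) and −0.34 (SE 0.15) did not pass after adjustment (adjusted p = 0.0871 and 0.186 by edgeR). PVT1 held 16.8, 12.7, and 12.4 CPM in the control and 11.1, 11.2, and 10.8 CPM with Arg. The gap between its groups was thus small beside the spread of the control.

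NORAD, at chr20:36045622-36050960, held 318, 328, and 329 CPM in the 24 h control and 389, 376, and 387 CPM with Arg. The groups were tight and did not overlap. Its log2 fold change of 0.24 (SE 0.07) had an adjusted p of 0.0527 in edgeR, just over the threshold, and of 0.0141 in DESeq2. Scaling by library size alone gave 0.0430 in edgeR, and leaving out control replicate B gave 0.0466. HCG11, its near copy, had the same log2 fold change of 0.24 (SE 0.14, adjusted p = 0.341 by edgeR) at a far lower level, with 12.7, 11.2, and 12.6 CPM in the control and 13.1, 13.6, and 16.3 CPM with Arg. At 48 h the copies lay further apart, with 0.08 (SE 0.14, adjusted p = 0.848) for HCG11 and 0.30 for NORAD. NORAD averaged 6422 counts and HCG11 234. Since they share sequence, reads of NORAD may have been counted for HCG11, which was not tested.

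BAIAP2-DT is transcribed away from BAIAP2, which encodes an adaptor of the actin cytoskeleton and starts 0.241 kb from it. It had a log2 fold change of 0.46 (SE 0.19, adjusted p = 0.161 by edgeR), from 7.74, 10.7, and 5.90 CPM to 10.1, 11.7, and 11.8 CPM, and the groups overlapped through control replicate B. Without that library, the highest of the 24 h controls, its value was 0.71 (adjusted p = 0.0199 by edgeR). BAIAP2-DT averaged 145 counts in the 24 h control and 200 with Arg. It thus lay under the threshold in that control, and these tests are not independent of the rule. BAIAP2 itself rose with Arg, by 0.48 on the log2 scale (SE 0.09, adjusted p = 0.00320 by edgeR).

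Ranges of the 3 Arg libraries and the 3 controls did not overlap for 5 members that lay higher (12.9% of genes) and 4 that lay lower (13.4% of genes). The 4 were LINC01503 and, from the members that reached the count threshold through the controls, UCA1, MYOSLID, and PVT1. A log2 fold change above 0 was found for 17 of the 26 members, against 50.5% of all genes. The median over the members was 0.14, beside 0.0030 over all genes tested and 0.13 over 377 other lincRNAs.

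**Figure D2:**
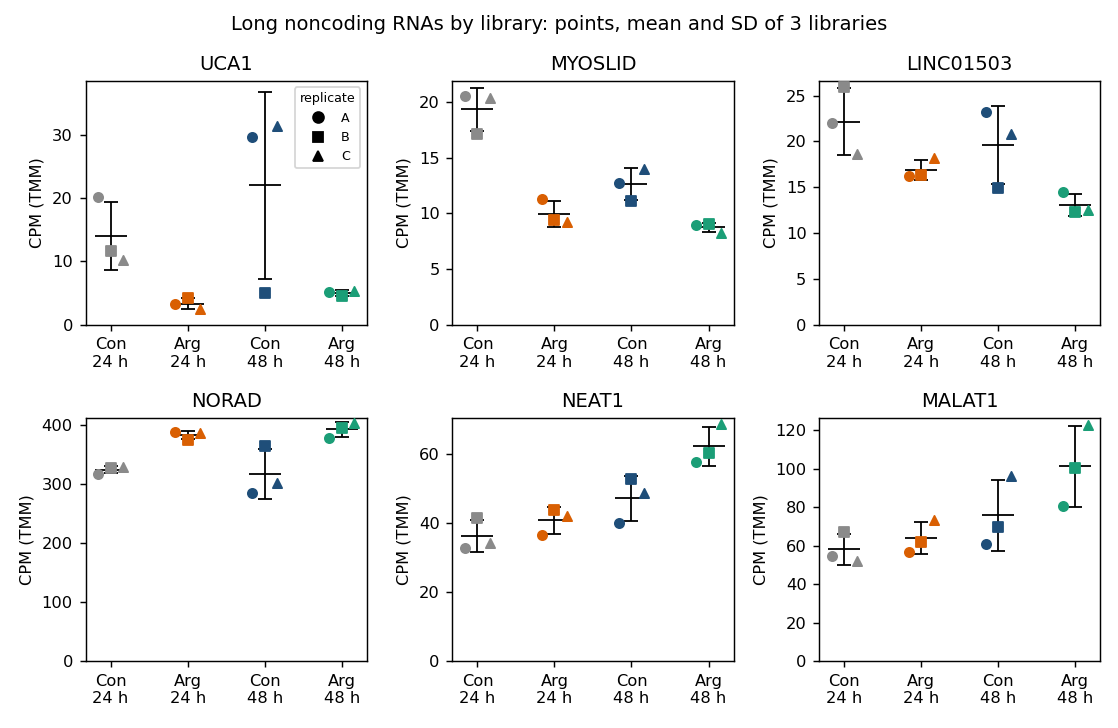
CPM of 6 members in each library (points, with replicates A, B, and C as circle, square, and triangle) and the mean and SD of the 3 libraries of a group. UCA1 was at 2.47 to 4.25 CPM with Arg at 24 h, against 10.2 to 20.1 CPM in the control, and at 48 h control replicate B (4.97 CPM) lay with the Arg libraries.

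After 48 h, no member passed at an adjusted p under 0.05 in edgeR, where 17 of the 14562 genes tested passed, all of them lower (0.117%, and 0% higher). At an unadjusted p under 0.05, 4 members were higher (5.94% of genes) and 3 were lower (7.49% of genes). DESeq2 called NEAT1 as higher (log2 fold change 0.40, adjusted p = 0.0441) and LINC01503 as lower (−0.59, adjusted p = 0.0470).

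UCA1 in the 48 h control held 29.7 and 31.3 CPM in replicates A and C and 4.97 CPM in replicate B, and with Arg it held 5.21, 4.46, and 5.29 CPM. Replicate B therefore lay within the range of the Arg libraries. With all libraries the log2 fold change was −2.14 (SE 0.48, adjusted p = 0.134 by edgeR), and without control replicate B it was −2.61 (SE 0.13, adjusted p = 2.01e-12). The high mitochondrial share of that library is given above, and its part in the UCA1 value was not tested.

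LINC01503 stood at 23.2, 14.9, and 20.8 CPM in the 48 h control and at 14.5, 12.3, and 12.5 CPM with Arg. The ranges came close through control replicate B but did not overlap. Its log2 fold change was −0.59 (SE 0.16, adjusted p = 0.176 by edgeR) with all libraries and −0.75 (SE 0.12, adjusted p = 0.000169) without that replicate. MYOSLID held 12.7, 11.1, and 14.0 CPM in the control and 8.96, 9.04, and 8.28 CPM with Arg, again without overlap, and gave −0.53 (SE 0.14, adjusted p = 0.176 by edgeR), or −0.61 (adjusted p = 0.00548) without control replicate B.

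NORAD held 285, 365, and 302 CPM in the 48 h control and 379, 396, and 405 CPM with Arg. All Arg libraries lay above the controls, of which replicate B was the highest. The log2 fold change was 0.30 (SE 0.08, adjusted p = 0.180 by edgeR), and 0.42 (SE 0.06, adjusted p = 1.59e-05) without that replicate. The second most abundant member, AL161431.1, gave 0.26 (SE 0.10, adjusted p = 0.272), or 0.37 (adjusted p = 0.000713) without it.

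NEAT1, at chr11:65422774-65445540, and MALAT1, at chr11:65497688-65506516, are neighbors on chromosome 11. NEAT1 held 40.0, 52.7, and 48.6 CPM in the 48 h control and 57.6, 60.2, and 68.6 CPM with Arg, without overlap (0.40 on the log2 scale, SE 0.11, adjusted p = 0.170 by edgeR). It reached an adjusted p of 0.000665 without control replicate B. MALAT1 held 60.8, 69.9, and 96.4 CPM in the control and 80.7, 101, and 123 CPM with Arg, and its groups overlapped (0.42, SE 0.16, adjusted p = 0.296).

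Without control replicate B, edgeR called 6 members higher, where 7.76% of the genes then tested were higher, and 3 lower, where 8.17% were lower. The 6 were NORAD, AL161431.1, AC245041.2, NEAT1, TTTY15, and AL590004.3, and the 3 were UCA1, LINC01503, and MYOSLID. UCA1 and MYOSLID reached the count threshold through the controls, and AL590004.3 through the 48 h groups. Their tests are not independent of the rule, so nothing is read from these counts beside those shares. Of the 3 lower, LINC01503 alone had at least 200 counts in every group. Leaving out any other single library gave no call among the members. With all libraries, the ranges did not overlap for 7 members that lay higher (8.55% of genes) and 2 that lay lower (8.52%). Of the 26 members, 17 lay above 0, against 50.3% of all genes, and their median was 0.10, beside 0.0018 over all genes. No nearest gene of a member passed at 48 h.

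**Figure D3:**
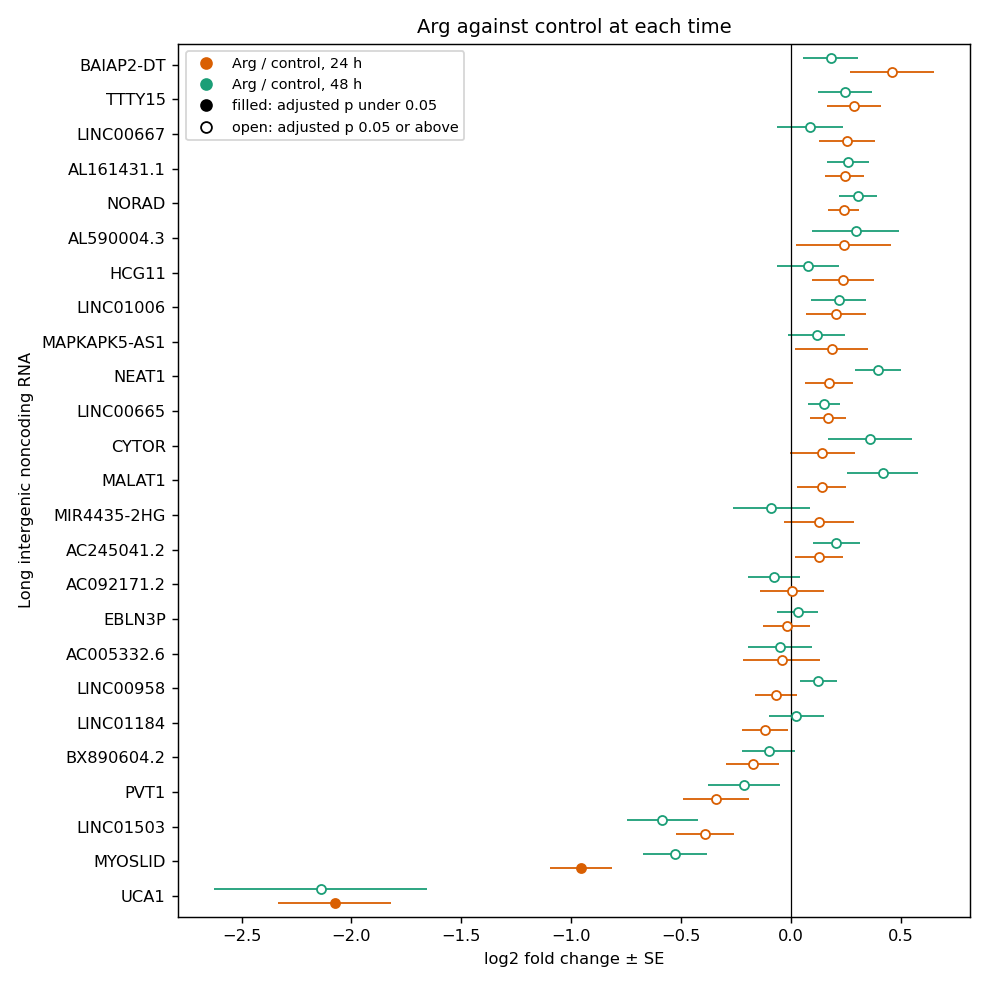
Log2 fold change of Arg against control (bars, ± SE) for 25 members at 24 h and 48 h, filled where the adjusted p by edgeR was under 0.05. UCA1 lies near −2 at both times (−2.08 and −2.14), and the filled points are those of UCA1 and MYOSLID at 24 h.

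Read across both times, which share no library, 14 members had a log2 fold change above 0 at both (34.1% of the 13996 genes tested at both) and 6 below 0 at both (33.5%), while 6 differed in sign (32.4%). An unadjusted p under 0.05 was reached at both times by 5 members. NORAD and AL161431.1 did so in the higher direction, as did 2.24% of genes, and UCA1, MYOSLID, and LINC01503 in the lower, as did 3.92%. UCA1 and MYOSLID are again members that reached the count threshold through the controls. The difference between the Arg effects at 48 and 24 h was tested with the interaction term of a fit to all 12 libraries. No member passed at an adjusted p under 0.05 in edgeR or in DESeq2, where 0.0132% of 15148 genes were higher in edgeR and 0% lower. MYOSLID alone had an unadjusted p under 0.05, against 3.06% of genes in that direction and 3.8% in the other, with a difference of 0.43 on the log2 scale (SE 0.20, adjusted p = 0.708 by edgeR). Of all members, 14 had a difference above 0, against 48.9% of genes. After MYOSLID came LINC00958, with 0.19 (SE 0.12), and NEAT1, with 0.23 (SE 0.16). For UCA1 the difference was −0.06 with an SE of 0.63, so that the data leave room for a wide range of differences.

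Time in culture was compared in each condition. These comparisons share libraries with those of Arg, since each group enters both, and so their values are set side by side only. In the control, 3 members were higher at 48 h than at 24 h at an adjusted p under 0.05, where 9.9% of the 14449 genes tested were, and 5 were lower, where 10% were. With Arg, 5 members were higher, where 14.3% of 14398 genes were, and 6 were lower, where 14% were. Among the 18 members at or above 200 counts in every group, 1 was higher and 3 were lower in the control, and 3 were higher and 5 lower with Arg. When the scaling was by library size alone, the counts were 3 and 5 in the control and 5 and 4 with Arg, and over all genes 12.8% were higher and 6.98% lower in the control, and 17.8% and 10.1% with Arg. At an unadjusted p under 0.05, 5 members were higher (17.1% of genes) and 10 lower (17%) in the control, and 6 were higher (19.3%) and 8 lower (19.2%) with Arg.

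AL590004.3, at chr6:3904920-3911979, is a lincRNA with a clone name that lies 53.6 kb from FAM50B. Its tests with time are not independent of the rule, since it reached the count threshold only through the 48 h groups. It showed the largest rise with time. It held 5.41, 10.9, and 6.43 CPM in the 24 h control and 24.8, 41.4, and 21.5 CPM in the 48 h control. With Arg it held 8.31, 9.48, and 9.02 CPM at 24 h and 40.6, 30.9, and 36.3 CPM at 48 h. No library at 24 h reached any at 48 h, and replicate B was the highest control at both times. On the log2 scale the change was 1.95 (SE 0.28, adjusted p = 0.00186 by edgeR) in the control and 2.01 (SE 0.12, adjusted p = 6.29e-09) with Arg, 3.87-fold and 4.03-fold higher, and both calls were kept without any single library. FAM50B rose with time in the Arg groups by 0.43 (SE 0.11, adjusted p = 0.00664 by edgeR) and did not pass in the control. The summed level of fibroblast markers was also higher at 48 h, and its part was not tested. This was carried by DCN, which rose by 1.08 and 1.61 on the log2 scale in the control and with Arg, and COL1A1, which rose by 0.97 and 0.80 (adjusted p at most 0.00293 by edgeR). PDGFRB gave −0.11 and −0.16 without passing, and COL1A2 and COL3A1 had at most 1 and 4 counts in any library. LUM averaged 0.80 CPM at 24 h and 1.65 CPM at 48 h in the control, and 0.85 and 1.84 CPM with Arg. The 6 fibroblast markers summed to between 34.2 and 54.3 CPM in the 24 h control and between 85.3 and 102 CPM in the 48 h control, and to between 30.2 and 41.1 and between 72.6 and 100 CPM with Arg. Keratinocyte markers summed to between 32525 and 44729 CPM at 24 h and between 38056 and 41859 CPM at 48 h. KRT5 and KRT14 took most of this sum. KRT15 averaged 71.6 CPM at 24 h and 207 CPM at 48 h in the control, and 100 and 218 CPM with Arg. DSG3, TP63, and CDH1 also had higher means at 48 h in both conditions. KRT14 and ITGB4 did not, and KRT5 had a higher mean at 48 h in the control only.

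BAIAP2-DT rose with time as well, to 12.3, 13.8, and 12.4 CPM in the 48 h control and 14.3, 14.0, and 15.4 CPM in the 48 h Arg group, with the 24 h values given above. Neither pair of groups overlapped. BAIAP2-DT averaged 145 counts in the 24 h control, under the threshold, so its tests are not independent of the rule. The log2 fold change was 0.66 (SE 0.20, adjusted p = 0.0369 by edgeR) in the control and 0.38 (SE 0.13, adjusted p = 0.0356) with Arg. The first call was lost without any library other than control replicate B at 24 h (adjusted p from 0.0620 to 0.143), and the second without any library other than Arg replicate C at 24 h (up to 0.118). BAIAP2 rose in the control by 0.36 (SE 0.09, adjusted p = 0.0167) and gave 0.03 (SE 0.07, adjusted p = 0.802) with Arg.

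NEAT1 held 32.7, 41.6, and 34.3 CPM in the 24 h control and 36.4, 43.9, and 42.1 CPM with Arg at 24 h. Set against the 48 h values above, the control groups overlapped and the Arg groups did not. The log2 fold change was 0.38 (SE 0.12, adjusted p = 0.0477 by edgeR) in the control, where the call was lost without replicate A or C at 24 h or B or C at 48 h (adjusted p from 0.111 to 0.197). With Arg it was 0.61 (SE 0.09, adjusted p = 6.80e-05). A correction for exonic length lowered the value in the control to 0.23 (adjusted p = 0.126).

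MALAT1 held 54.8, 67.2, and 52.3 CPM in the 24 h control and 56.7, 62.1, and 73.1 CPM with Arg at 24 h. With Arg it rose by 0.66 (SE 0.12, adjusted p = 0.000286 by edgeR), and every 48 h library lay above every 24 h library. In the control the value was 0.39 (SE 0.15, adjusted p = 0.0940). AC245041.2, a clone-named lincRNA on chromosome 10, rose with time in the Arg groups by 0.44 (SE 0.08, adjusted p = 0.000469 by edgeR). It went from 58.0, 66.2, and 70.0 CPM to 88.8, 86.2, and 87.8 CPM, and gave 0.36 (SE 0.13, adjusted p = 0.0802) in the control.

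CYTOR and MIR4435-2HG, the pair of loci that share sequence in transcript and promoter, both fell in both conditions. CYTOR averaged 174 counts in the 48 h control, under the threshold, so its tests are not independent of the rule. CYTOR held 19.9, 15.0, and 18.8 CPM in the 24 h control and 9.22, 6.94, and 11.4 CPM at 48 h, and 23.7, 18.8, and 16.8 CPM with Arg at 24 h and 9.69, 12.3, and 13.5 CPM at 48 h. The times did not overlap in either condition. Its log2 fold change was −0.96 (SE 0.19, adjusted p = 0.00598 by edgeR) in the control and −0.74 (SE 0.15, adjusted p = 0.000901) with Arg, and both calls were kept without any single library.

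MIR4435-2HG held 26.6, 15.6, and 21.5 CPM in the 24 h control and 13.9, 10.6, and 14.3 CPM at 48 h. With Arg it held 23.8, 25.5, and 20.4 CPM at 24 h and 9.33, 13.3, and 14.0 CPM at 48 h. The times did not overlap, although control replicate B at 24 h came within reach of the 48 h libraries. Its change with time was −0.71 on the log2 scale (SE 0.19, adjusted p = 0.0220 by edgeR) in the control and −0.93 (SE 0.14, adjusted p = 6.81e-05) with Arg. In the control, the adjusted p was 0.125 without replicate A at 24 h and 0.0789 without replicate C at 24 h. Since the loci share sequence, these may not be fully separate measurements, which was not tested. AP-1 type matches were present in the promoters of both, whose windows are identical where they overlap, and of MYOSLID, which fell in the control. The windows of LINC00665, which fell from 24 to 48 h in the Arg groups, held none, and the part of this motif was not tested.

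MYOSLID fell from the 24 h to the 48 h control by 0.61 on the log2 scale (SE 0.14, adjusted p = 0.0107 by edgeR), without overlap. The adjusted p was 0.0611 and 0.0544 without control replicates A and C at 24 h, respectively. With Arg, where it was already at 9.24 to 11.3 CPM at 24 h, its log2 fold change was −0.19 (SE 0.15, adjusted p = 0.396).

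LINC01006, named RNF32-DT in GENCODE v44, fell in both conditions. It held 21.4, 15.1, and 22.1 CPM in the 24 h control and 11.7, 13.2, and 13.3 CPM at 48 h. With Arg it held 23.7, 21.5, and 22.3 CPM at 24 h and 14.3, 14.3, and 15.9 CPM at 48 h. The times were apart in both conditions. The log2 fold change was −0.61 (SE 0.16, adjusted p = 0.0192 by edgeR) in the control and −0.60 (SE 0.11, adjusted p = 0.000471) with Arg. In the control the adjusted p was 0.0996, 0.0961, and 0.0678 without replicates A and C at 24 h and A at 48 h.

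LINC01503 and LINC00665 passed in the Arg groups. LINC00665 held 82.2, 85.0, and 82.8 CPM at 24 h and 71.6, 74.0, and 70.9 CPM at 48 h, and neither member's times overlapped. LINC01503 fell by 0.37 on the log2 scale (SE 0.13, adjusted p = 0.0351 by edgeR), and LINC00665 by 0.21 (SE 0.07, adjusted p = 0.0398). The call of LINC01503 was lost without Arg replicate C at 24 h or B or C at 48 h (adjusted p up to 0.132), and that of LINC00665 without any library other than Arg replicate A at 24 h (up to 0.121). Of 8 alternatives that kept all libraries, 2 kept the call of LINC01503 and 5 that of LINC00665. In the control the values were −0.17 (SE 0.17) and −0.19 (SE 0.08). UCA1 gave 0.66 (SE 0.48, adjusted p = 0.361) in the control, or 1.13 (SE 0.21, adjusted p = 0.00320) without control replicate B at 48 h, and 0.59 (SE 0.24, adjusted p = 0.0727) with Arg.

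**Figure D4:**
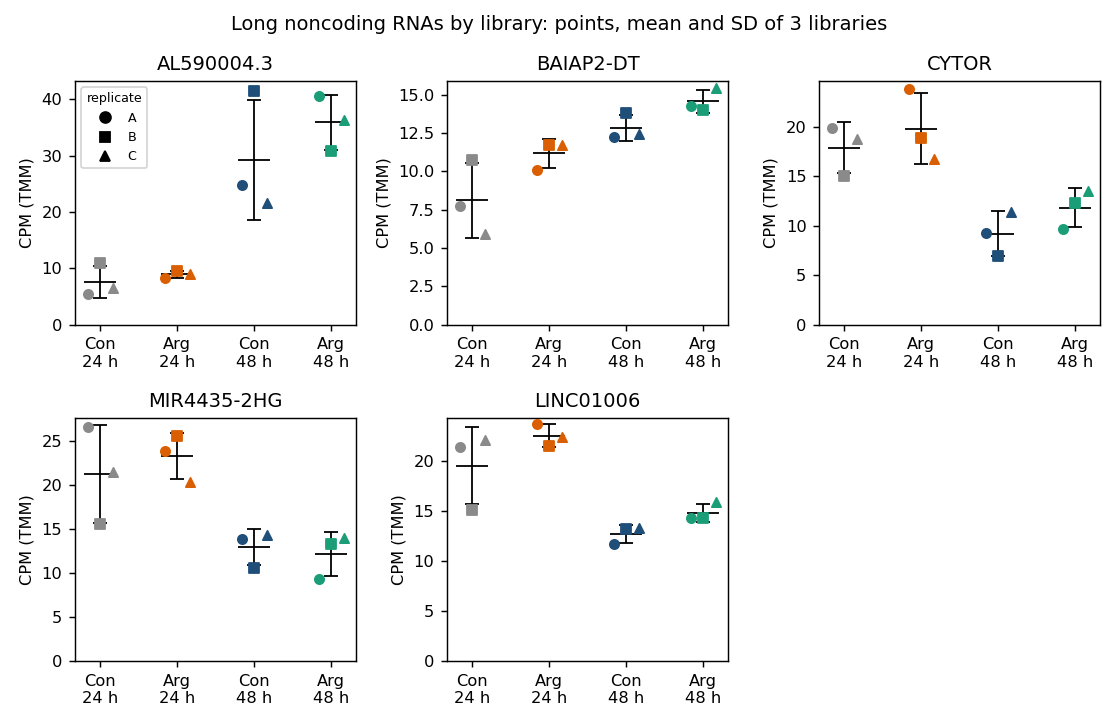
CPM of 5 members in each library (points, with replicates A, B, and C as circle, square, and triangle) and the mean and SD of the 3 libraries of a group. AL590004.3 rose from at most 10.9 CPM at 24 h to at least 21.5 CPM at 48 h, and CYTOR, MIR4435-2HG, and LINC01006 were lower at 48 h in both conditions.

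In the control, the 24 and 48 h ranges did not overlap for 2 members that lay higher (19.2% of genes) and 10 lower (19.8%). The 2 were AL590004.3 and BAIAP2-DT, both under the count threshold in the 24 h control. With Arg, the ranges did not overlap for 6 members that lay higher (21.1%) and 9 lower (21.2%). A log2 fold change above 0 was found for 11 members in the control (51.5% of genes) and 10 with Arg (50.1% of genes). The sign of the log2 fold change with time was the same in both conditions for 23 of the 26 members, against 77.5% of the 14057 genes tested in both. The median was −0.05 in the control and −0.06 with Arg, beside 0.01 and 0.0009 over all genes. With scaling by library size alone these medians were 0.01 and 0.00008, so no direction is read from them. AC005332.6, AC092171.2, HCG11, LINC00667, and MAPKAPK5-AS1 had an unadjusted p of 0.05 or above in all 4 comparisons by edgeR. Of these 5, 4 overlap another gene, as do 12 of the 26 members. The share of all genes without such a p-value was not computed, so nothing is read from these counts.

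**Figure D5:**
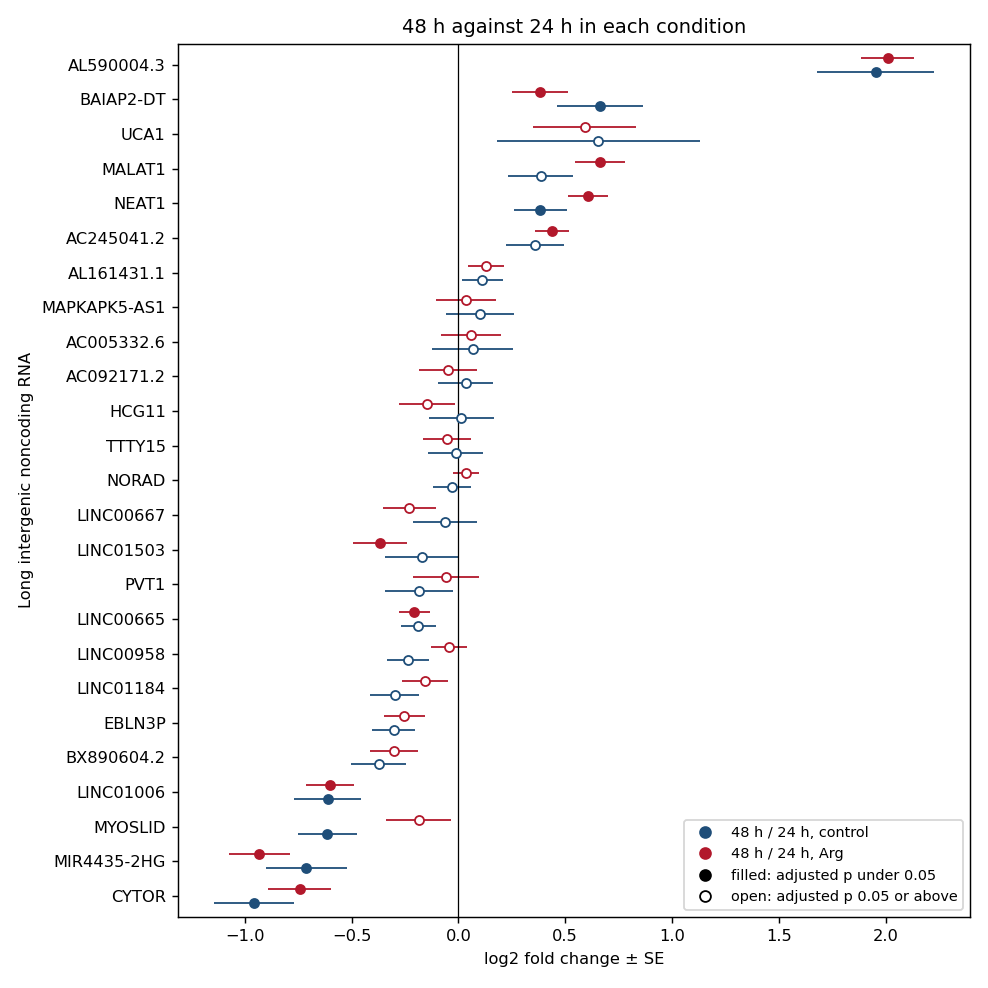
Log2 fold change of 48 h against 24 h (bars, ± SE) for 25 members in the control and with Arg, filled where the adjusted p by edgeR was under 0.05. AL590004.3 lies apart at 1.95 and 2.01, and CYTOR is lowest in the control at −0.96.

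For each member the nearest of the tested protein-coding genes was taken. NPY4R2 (27 counts) and CCDC192 (62 counts), which overlap AC245041.2 and LINC01184, were not among those tested. Of 26 pairs, the nearest gene was called in 2 with Arg at 24 h and 0 at 48 h. With time, 6 were called in the control and 10 with Arg. The shares of all genes called in each direction are those given above. A member and its nearest gene had the same sign in 15, 12, 17, and 13 of 26 pairs in these comparisons. MYC, the growth-promoting transcription factor next to PVT1, fell with time by 0.74 (SE 0.13, adjusted p = 0.00418 by edgeR) in the control and by 0.82 (SE 0.07, adjusted p = 6.42e-08) with Arg. PVT1 itself gave −0.19 (SE 0.16, adjusted p = 0.443) and −0.06 (SE 0.15, adjusted p = 0.815). IER5L, the nearest of the tested genes to LINC01503 at 154 kb, fell by 0.69 and 0.59 (adjusted p = 0.0157 and 0.00332 by edgeR).

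The proteins that work with these RNAs were followed as lists. Their counts stand beside 2.79% of all genes higher and 3.84% lower with Arg at 24 h, and 0% and 0.117% with Arg at 48 h. With time, they stand beside 9.9% and 10% in the control and 14.3% and 14% with Arg. Nothing particular to a list is read from them. Since so few genes passed with Arg at 48 h, a list without a call at that time shows little. None of the 16 paraspeckle proteins passed with Arg at either time, and their median log2 fold changes were 0.11 and 0.11. At each time 13 of the 16 lay above 0, where 50.5% and 50.3% of genes did. At an unadjusted p under 0.05 by edgeR, 2 were higher and 1 lower at 24 h (10.8% and 11.9% of genes). At 48 h, 5 were higher and 1 lower (5.94% and 7.49%). With time in the Arg groups, PSPC1 and SS18L1 of the paraspeckle list rose by 0.24 and 0.35, and RBMX and HNRNPH3 fell by 0.26 and 0.30 (adjusted p between 0.00383 and 0.0374 by edgeR).

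Of 13 genes of microRNA biogenesis, AGO2, the slicing Argonaute, fell with Arg at 24 h by 0.34 (SE 0.09, adjusted p = 0.0301 by edgeR), and it was the only one to pass with Arg. With time, 1 rose and 3 fell in the control, and 1 rose and 3 fell with Arg. XPO5, which exports microRNA precursors from the nucleus, fell in both, by 0.46 and 0.44 (adjusted p = 0.00307 and 7.49e-05). Of 18 genes of nuclear RNA decay, none passed with Arg, 3 fell with time in the control, and 5 fell and 1 rose with Arg, with the exosome subunit EXOSC6 falling by 0.29 and 0.56.

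Of 11 Polycomb genes, which encode a chromatin-silencing complex that many lincRNAs have been reported to bind, none passed with Arg. EZH1 rose with time in the control by 0.64, and PHF19, EZH2, and EED fell with time with Arg, by 0.42, 0.27, and 0.28. Of 20 p53 target genes, PLK3, a stress kinase, fell with Arg at 24 h by 0.70 (SE 0.18, adjusted p = 0.0254 by edgeR). With time, 4 rose and 2 fell in the control, and 8 rose and 2 fell with Arg. CDKN1A, the cell cycle inhibitor p21, rose by 0.54 and 0.34 (adjusted p = 0.00619 and 0.00158 by edgeR). The 2 that fell were AEN (−0.51 in the control and −0.51 with Arg) and PLK3 (−0.91 and −0.99).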

How the data were processed

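Poly(A) RNA of TIGK cells was sequenced as paired-end reads of 12 libraries. The authors filtered reads with fastp, mapped them to GRCh38/hg38 with STAR, and deposited raw counts per gene made with featureCounts, as whole numbers without normalization. Tool versions, the annotation release, and the strand setting are not given in the sources used here. No column was dropped (0 left out).

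Groups were taken from the labels. Each pair of groups was fitted on the whole table with edgeR 4.0.16 in R 4.3.3 (TMM, the filter on low counts, the quasi-likelihood test, Benjamini–Hochberg adjustment over all tested genes), and the interaction was fitted on all 12 libraries. CPM were computed with TMM factors over the 12 libraries, and an SE is the absolute log2 fold change divided by the square root of the F statistic. Counts of members are given beside the share of all tested genes called in the same way. An exact permutation test of 3 against 3 libraries could reach no p under 0.1. The scripts were tested on simulated data. The alternatives were DESeq2 1.42.0, its size factors, scaling by library size alone, keeping genes with low counts, the replicate block, removing a trend with exonic length (lowess, span 0.3, prior count 2) with or without that block, a single model of all libraries, leaving out members that overlap another gene, leaving out members under 200 counts in any group (added after seeing the data), and leaving out each library. Promoters and microRNAs came from RefSeq (GRCh38.p14), and transcripts from GENCODE v44, in which 25 of the 26 members were found by identifier.

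The members, lists, and tests were chosen with earlier results of these data known. Given in full are members with an adjusted p under 0.05, NORAD, MALAT1, NEAT1, PVT1, CYTOR, and LINC01503, the 5 highest per exonic kilobase, the 3 rows on either side of the threshold, the 3 smallest interaction p-values, the nearest protein-coding genes of these, and at most 3 genes of each list by p. HCG11, MIR4435-2HG, UCA1, AL161431.1, and further members and list genes are named because any member may be named or because a small count falls on them. A further member enters the counts of members but is not reported here, nor is a list of partner proteins.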

Additional observations from a re-analysis of the deposited data

How the results depend on the processing

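Over all members and comparisons, 957 of 1014 values under alternatives other than leaving out a library kept their side of the threshold, 13 calls were lost, and 44 were gained. Of 936 values without a library, 882 kept it, 33 calls were lost, and 21 were gained. None of the values with an unadjusted p under 0.05 changed sign. UCA1 and MYOSLID were called at 24 h under every alternative, except that both are left out with the members that overlap another gene, which leaves 0 lower. Without the members under 200 counts in any group, an alternative chosen after seeing the data, 0 were lower at 24 h, 1 was higher and 3 lower with time in the control, and 3 were higher with time with Arg. At 24 h, 1 member (NORAD) was higher in DESeq2 (3.46% of all genes) and with library size only (2.87%). At 48 h, where 0 passed, the members called higher and lower were 1 and 1 in DESeq2 (0.275% and 0.989% of all genes), 4 and 2 without the filter on low counts (0.73% and 1.37%), and 0 and 1 in the single model (0.0264% and 0.244%), so that calls rose over all genes too. With time in the control, 5 were higher in DESeq2 (10.4%) and 6 without the filter (5.94%), against 3, and 1 was lower without overlapping members, against 5. With time with Arg, 3 were lower without overlapping members, against 6. The causes were not tested.

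Same-lettered libraries deviated from their group means with correlations between −0.061 and 0.135, so the letters were not taken to pair them. With the replicate block, 2 members were higher and 1 lower with Arg at 48 h, where 0.295% and 0.968% of all genes were (1 and 1 with the length correction too, where 0.165% and 0.68% were). With time in the control 5 were higher and 8 lower, where 13.6% and 14.4% were (9 lower with the length correction, where 14.9% were). The other counts with the block stayed within 1.5 times the main ones.

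With each library left out, the members higher and lower with Arg ranged from 0 to 2 and from 2 to 2 at 24 h, and from 0 to 6 and from 0 to 3 at 48 h. With time they ranged from 1 to 4 and from 1 to 6 in the control, the lowest without control replicates A or C at 24 h, where 2.74% to 3.36% of all genes were called in each direction, and from 4 to 5 and from 4 to 7 with Arg. The interaction gave 0 each time. The medians ranged from 0.047 to 0.16 and from 0.082 to 0.13 with Arg, from −0.13 to −0.0031 and from −0.12 to −0.054 with time, and from −0.037 to 0.053, so with either sign, for the interaction. The median SE of the members lay between 0.123 (time with Arg) and 0.195 (the interaction) on the log2 scale. In simulated counts with true log2 changes of 0.5, between 42 and 65 of 100 were called in the comparisons of pairs of groups. For the interaction, 23 of 100 were called, so changes of this size can be missed.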
